A study of Homo sapiens with 6 samples.

Results

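The BCL2 family genes described here are 10 genes whose protein products set the threshold for mitochondrial apoptosis. They were read from a table of deposited log2 intensities by gene symbol, with 1 row per gene, that of the highest mean level across the 6 arrays, out of 22413 genes tested. The pro-survival members are BCL2, BCL2L1 and MCL1, and the 7 pro-apoptotic members are BAX, BAK1, BBC3, PMAIP1, BCL2L11, BID and BIK. A row of its own was found for 9 of them. The BBC3 row is also annotated with 2 microRNA genes, MIR3190 and MIR3191, so its value cannot be assigned to BBC3 alone.

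Both groups were cultures of SW480, a single established line from a human colorectal adenocarcinoma. Cells were transiently transfected for 48 h with 30 pmol of siRNA, delivered with 2 µl of a lipid reagent. In 3 samples the siRNA targeted KHSRP, which encodes a protein that binds AU-rich transcripts and is known to speed their decay, and in the other 3 it was a non-targeting scramble siRNA. RNA was amplified, labelled with biotin and measured on Affymetrix arrays, and the labels call the 3 arrays of each group biological replicates. The comparison asks whether transcripts of the family differ between the siRNAs, and whether the pro-survival side differs otherwise than the pro-apoptotic side.

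BCL2 family proteins act at the outer mitochondrial membrane. BAX and BAK1 are the effectors that form pores and release cytochrome c, which then starts caspase activation through the apoptosome. BCL2, BCL-xL (the product of BCL2L1) and MCL1 hold these effectors and their activators in check, and the BH3-only proteins PUMA (BBC3), NOXA (PMAIP1), BIM (BCL2L11), BID and BIK relieve that restraint or act on the effectors directly. Much of the control of these proteins is known to lie after transcription, in phosphorylation, cleavage and degradation, which arrays do not measure.

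The siRNA target was not detectably lower. Its row, also annotated with MIR3940, stood at 5.62, 5.60 and 5.56 in replicates 1, 2 and 3 of the arrays labelled KHSRP siRNA and at 5.75, 5.59 and 5.64 in the arrays labelled scramble siRNA. The groups overlapped, and the log2 difference was -0.07 (SE 0.08, limma adjusted p = 0.804). Taken as plain log2 values, that is 95.3% of the scramble level with a 95% interval from 83.6% to 109%. Depletion of the KHSRP transcript was thus not seen on this row. The row cannot serve as a check of the labels, and group names below are the submitters' own. Of the epithelial markers KRT8, KRT18, KRT19, EPCAM and 6 others, the lowest and highest means were 3.59 (GPA33) and 15.58 (KRT18). GPA33 and ELF3 had means under 4.73, the level that 95% of olfactory receptor genes do not exceed. Of 14 markers of other cell types 12 were under that level, and CD68 (5.74) and ACTA2 (5.58) were above it. The summed linear level of the 10 epithelial markers was between 72259 and 82333 under KHSRP siRNA and between 51799 and 57897 under scramble siRNA, a sum dominated by the keratin genes KRT18 and KRT8 (means of 15.58 and 13.47). For the other cell types these sums ran from 285 to 303 and from 277 to 296. None of the 10 epithelial markers passed limma's adjusted threshold (6 at an unadjusted p under 0.05, beside 14.4% of all genes). Of the 10, 6 were higher without overlap, where 11.6% of all genes were. KRT8, KRT18 and KRT19 had log2 differences of 0.58, 0.49 and 0.55, and KLF5, VIL1 and ELF3 of 0.60, 0.28 and 0.25. EPCAM, CDH1, GPA33 and CDX2 lay between -0.09 and 0.08. The part of these markers in the members' differences was not tested. Since the RNA came from whole cultures, a change in RNA per cell and a change in the mix of living and dying cells cannot be told apart.

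None of the 10 members passed limma's threshold (adjusted p under 0.05 over all genes), against 0.758% of all genes tested, and 3 passed at an unadjusted p under 0.05, against 14.4% of all genes. PMAIP1, BIK and BID, the 3 below that unadjusted level, all encode BH3-only proteins and were all higher in the arrays labelled KHSRP siRNA. In these 3 and in BCL2L1 the groups did not overlap. That is 4 of 10 members higher without overlap and 0 lower, where 11.6% of all genes were higher and 7.82% lower without overlap. The remaining 6 members overlapped between the groups.

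**Figure D1:**
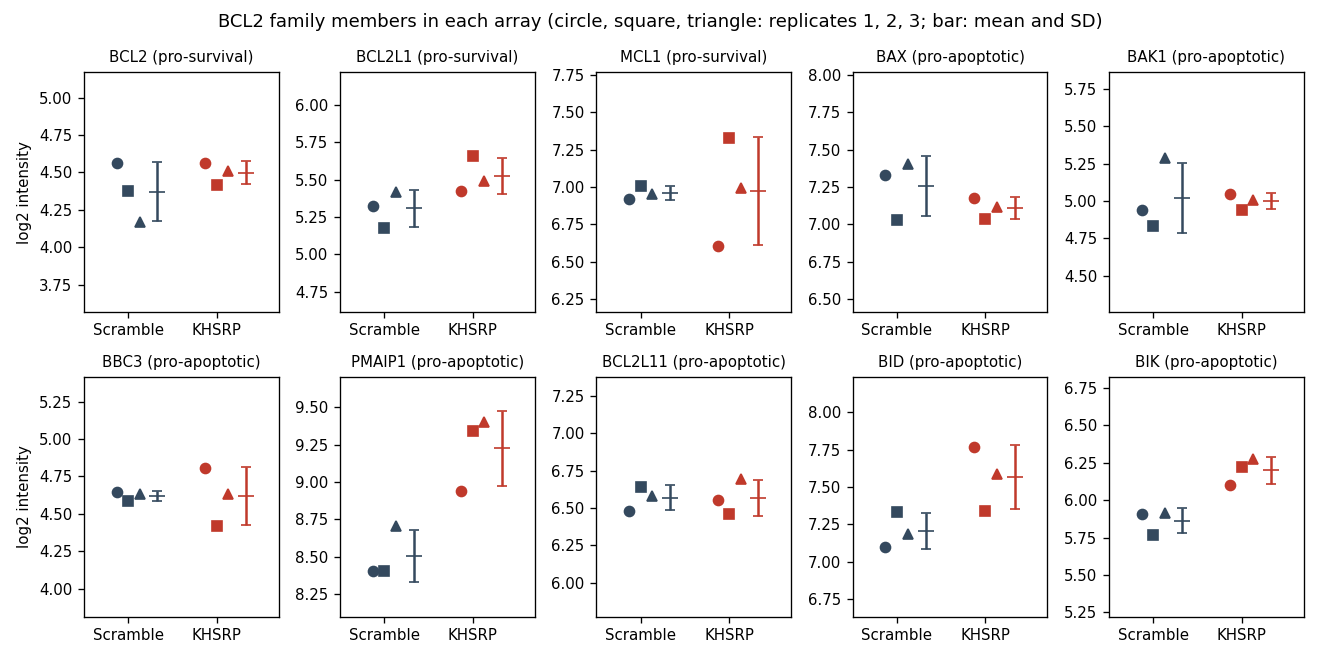
Log2 intensity (vertical axis, 1.6 log2 units in every panel) of each BCL2 family member in the 3 scramble siRNA arrays (dark) and the 3 KHSRP siRNA arrays (red); symbols mark replicates and bars give the mean and SD. The groups are apart for PMAIP1 and BIK, barely apart for BID and BCL2L1, and overlap for the other 6, with MCL1 widely spread in the KHSRP siRNA arrays.

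PMAIP1 encodes NOXA, a BH3-only protein known for binding MCL1 and promoting its degradation. Its level was 8.94, 9.34 and 9.40 in replicates 1, 2 and 3 of the arrays labelled KHSRP siRNA and 8.40, 8.40 and 8.70 in the scramble arrays. Every KHSRP siRNA array lay above every scramble array, the closest pair being 0.24 apart. Means were 9.23 ± 0.25 (SD, n = 3) and 8.50 ± 0.17 (SD, n = 3), a log2 difference of 0.72 (SE 0.15, limma adjusted p = 0.0774), or 165% of the scramble level with a 95% interval from 130% to 210%. The unadjusted limma p was 0.00164, and 2.11% of all genes had a smaller one. PMAIP1 had the largest difference of the 10 members and missed the adjusted threshold. It passed in 3 of 16 alternative settings: among genes above the median level only (limma adjusted p = 0.0486), with array weights (0.0425) and without KHSRP siRNA replicate 1 (0.0376). These settings also had the most calls over all genes, 433 of 11206, 705 of 22413 and 329 of 22413, against 170 of 22413 as reported. Replicate 1 held the lowest PMAIP1 level of its group. In the other settings the adjusted p ran up to 0.252, and the difference stayed between 0.64 and 0.87 in all 16.

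The RefSeq promoter windows (GRCh38.p14, 250 bases before to 50 after the annotated start) are shown for PMAIP1 and BAX, the members with the highest and the lowest fitted difference. Capitals mark matches, on either strand, to the letters searched.
PMAIP1, chr18:59899746-59900045, plus strand: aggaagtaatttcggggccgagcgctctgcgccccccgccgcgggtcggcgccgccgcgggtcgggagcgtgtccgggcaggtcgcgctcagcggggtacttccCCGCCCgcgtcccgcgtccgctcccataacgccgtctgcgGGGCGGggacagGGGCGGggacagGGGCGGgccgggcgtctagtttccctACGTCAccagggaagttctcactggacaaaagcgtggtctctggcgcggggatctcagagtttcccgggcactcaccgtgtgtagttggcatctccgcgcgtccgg
BAX, chr19:48954625-48954924, plus strand: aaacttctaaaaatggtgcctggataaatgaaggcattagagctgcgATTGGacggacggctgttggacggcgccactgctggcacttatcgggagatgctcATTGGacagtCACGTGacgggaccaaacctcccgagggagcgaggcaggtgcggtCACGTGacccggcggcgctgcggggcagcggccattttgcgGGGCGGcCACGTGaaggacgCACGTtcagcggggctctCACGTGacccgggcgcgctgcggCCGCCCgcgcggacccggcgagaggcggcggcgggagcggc

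The letters searched included GGGCGG for the GC box, CCAAT for the box of that name and TATAAA for the TATA box. The E-box was searched as CACGTG and the hypoxia response core, which lies inside it on both strands, as ACGTG alone. Elements for AP-1 and ATF4 were searched as TGANTCA and, for the latter, as TGATGNAA on either strand. The core of the cAMP response element, TGACGT, was added after the PMAIP1 window had been seen. The PMAIP1 window held 4 GC boxes, 1 TGACGT and none of the other letters. GC boxes stood in 45% of all 35116 windows and TGACGT in 7.98%. The BAX window held 4 E-boxes, 9 matches to ACGTG of which 8 lie in the E-boxes, 2 GC boxes and 2 CCAAT boxes. At least 1 E-box stood in 7.26% of all windows, ACGTG in 21.4% and CCAAT in 34.6%. Such matches are descriptions of the letters in these windows and not sites of binding.

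BIK, a BH3-only protein gene whose product acts largely at the endoplasmic reticulum, had the next smallest p. It stood at 6.10, 6.22 and 6.28 in the arrays labelled KHSRP siRNA and at 5.91, 5.77 and 5.92 in the scramble arrays. The groups lay 0.19 apart at their closest. Its means of 6.20 ± 0.09 and 5.86 ± 0.08 (SD, n = 3 each) gave a log2 difference of 0.34 (SE 0.09, limma adjusted p = 0.138), or 126% of the scramble level with a 95% interval from 109% to 146%. It was not called in any of the 16 alternatives, where its difference ran from 0.29 to 0.38.

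BID links death receptors to mitochondria, since its product is cleaved by caspase-8 and then acts on BAX and BAK1. Levels were 7.77, 7.34 and 7.59 under KHSRP siRNA and 7.10, 7.33 and 7.19 under scramble siRNA. The groups were separated by only 0.01, between replicate 2 of each. The log2 difference was 0.36 (SE 0.13, limma adjusted p = 0.251), or 128% of the scramble level with a 95% interval from 105% to 158%, and it ran from 0.26 without KHSRP siRNA replicate 1 to 0.47 without KHSRP siRNA replicate 2.

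The remaining BH3-only members did not separate the groups. BCL2L11, which encodes BIM, was at 6.55, 6.46 and 6.69 in the arrays labelled KHSRP siRNA and at 6.48, 6.64 and 6.58 in the scramble arrays. Its level was 99.9% of the scramble level with a 95% interval from 85.7% to 116% (limma adjusted p = 0.998). A dimmer row of BCL2L11 gave 4.33 ± 0.27 and 4.36 ± 0.30 (SD, n = 3 each), a difference of -0.02 on a row below 4.73, the olfactory receptor level named above. The row of BBC3, the gene of PUMA, was at 4.81, 4.42 and 4.63 against 4.65, 4.58 and 4.63, and its mean over all arrays also lay below 4.73. Its log2 difference was -0.003 (SE 0.11, limma adjusted p = 0.997). Intervals for low rows such as these may be compressed toward 0, since RMA is known to shrink differences near background.

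The effector genes did not separate the groups either. BAX was at 7.18, 7.04 and 7.12 in the arrays labelled KHSRP siRNA and at 7.33, 7.03 and 7.40 in the scramble arrays. BAK1 was at 5.05, 4.94 and 5.01 and at 4.94, 4.83 and 5.28. For both effectors the scramble arrays were more spread than the KHSRP siRNA arrays and enclosed them. BAX had the lowest difference of the 10 members, -0.14 (SE 0.12, limma adjusted p = 0.677), or 90.5% of the scramble level with a 95% interval from 75.0% to 109%. BAK1 was at 98.5%, with an interval from 80.3% to 121% (limma adjusted p = 0.974).

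Among the pro-survival members, BCL2L1 alone had groups that did not overlap, by 0.004. It stood at 5.42, 5.66 and 5.49 in the arrays labelled KHSRP siRNA and at 5.33, 5.18 and 5.42 in the scramble arrays. The log2 difference was 0.22 (SE 0.10, limma adjusted p = 0.401), or 116% of the scramble level with a 95% interval from 98.5% to 137%. BCL2L1 is known to give a long, protective and a short, death-promoting splice form, and a gene-level row does not separate them.

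MCL1, a short-lived pro-survival protein and the main partner of NOXA, had nearly equal means and unequal spreads. It was at 6.61, 7.33 and 6.99 in the arrays labelled KHSRP siRNA, holding both the lowest and the highest of the 6 values, and at 6.92, 7.01 and 6.95 in the scramble arrays. The SD was 0.36 in the former and 0.04 in the latter. Its log2 difference was 0.01 (SE 0.17, limma adjusted p = 0.988), with a 95% interval from 76.4% to 134% of the scramble level. It went to -0.16 without KHSRP siRNA replicate 2 and to 0.20 without KHSRP siRNA replicate 1, so the sign is not settled.

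BCL2, the founding member of the family, was dim throughout. It stood at 4.56, 4.41 and 4.51 in the arrays labelled KHSRP siRNA and at 4.57, 4.37 and 4.17 in the scramble arrays, all below 4.73. The groups overlapped, and the log2 difference was 0.13 (SE 0.12, limma adjusted p = 0.728), or 109% with an interval from 90.5% to 132%. It was 0.03 without scramble replicate 3 and 0.22 without scramble replicate 1.

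**Figure D2:**
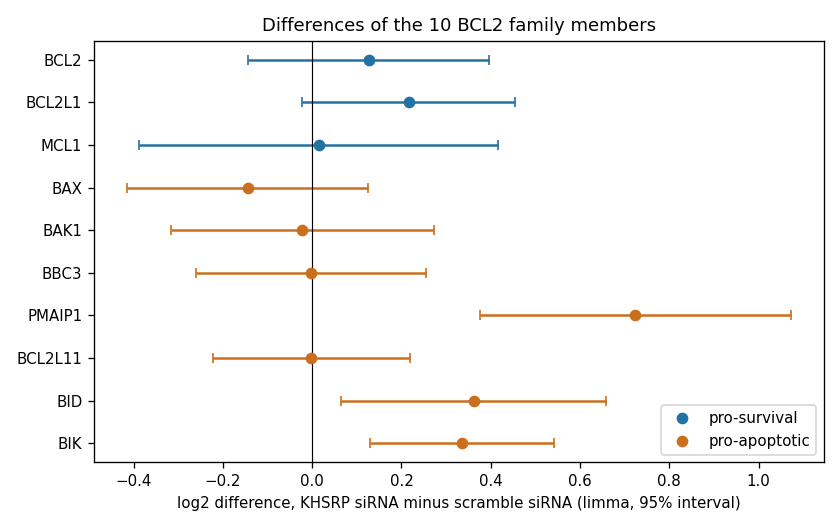
Log2 difference between KHSRP siRNA and scramble siRNA arrays (horizontal axis) for the 10 members, with limma's 95% interval before any adjustment for multiple tests; pro-survival members are blue and pro-apoptotic members orange. The intervals of PMAIP1, BID and BIK lie above 0 and those of the other 7 include 0.

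Set against each other, the sides of the family differed by less than the spread between arrays. The 3 pro-survival members had a median log2 difference of 0.13 and the 7 pro-apoptotic members one of -0.002, beside 0.02 over all genes tested. Within the pro-apoptotic side, PMAIP1, BID and BIK lay between 0.34 and 0.72 and the other 4 between -0.14 and -0.002. This grouping was made by the differences themselves, so the gap between its parts is no separate result. None of the 7 was called. For each array the mean log2 level of the pro-survival members minus that of the pro-apoptotic members was taken; probes differ in brightness, so only its change between arrays can be read. This balance was -1.10, -0.74 and -1.01 in the arrays labelled KHSRP siRNA and -0.80, -0.85 and -1.01 in the scramble arrays. The groups overlapped, and replicate 2 of KHSRP siRNA, the array with the highest MCL1, had the highest balance of all. The group means of -0.95 ± 0.19 and -0.89 ± 0.11 (SD, n = 3 each) differed by -0.06, less than either SD. Leaving out single arrays moved that difference from -0.16 without KHSRP siRNA replicate 2 to 0.02 without KHSRP siRNA replicate 1, and without the shared BBC3 row it was -0.09. BCL2, 1 of the 3 pro-survival members, and BBC3 had means below 4.73, where differences may be compressed. Among members above the median level only, which leaves out both, the difference was -0.0933.

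PMAIP1 and MCL1 encode direct binding partners, and their transcripts were compared within each array; this pair and those below were chosen after the values were seen. PMAIP1 minus MCL1 was 2.33, 2.01 and 2.40 in the arrays labelled KHSRP siRNA and 1.48, 1.39 and 1.75 in the scramble arrays. The groups did not overlap, and their means differed by 0.71, close to the difference of PMAIP1 alone. Against BCL2L1, the pairs went in different directions. PMAIP1 minus BCL2L1 was higher under KHSRP siRNA by 0.51 without overlap. BAX minus BCL2L1 was 1.75, 1.38 and 1.63 against 2.01, 1.85 and 1.98, lower without overlap, with means that differed by -0.36. That joins the differences of BAX (-0.14) and BCL2L1 (0.22) given above, neither of which was called. How many gene pairs separate in this way was not computed, so these separations have no share beside them. BIK minus BCL2L1 was 0.68, 0.56 and 0.78 against 0.58, 0.59 and 0.49, with overlapping groups, and BID minus BCL2L1 also overlapped, with means 0.15 apart.

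**Figure D3:**
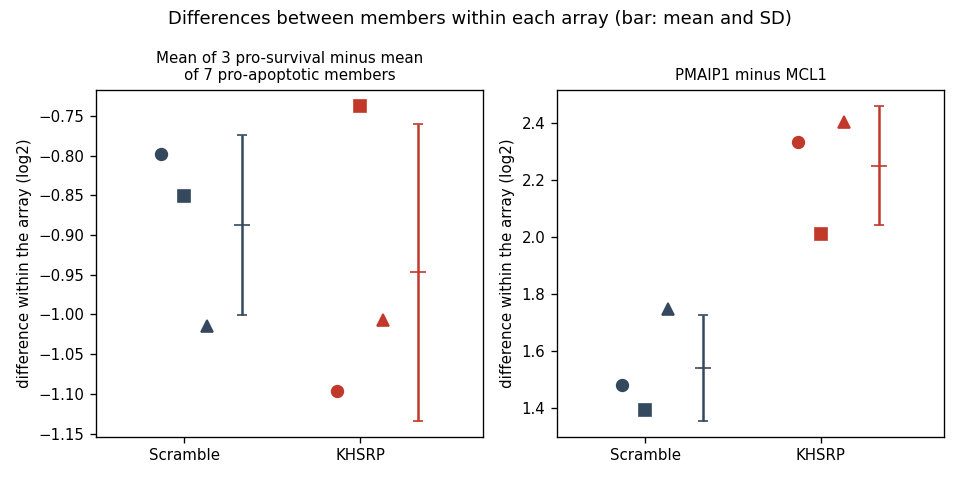
Differences between members within each array (vertical axes, log2) for scramble siRNA (dark) and KHSRP siRNA (red) arrays, with symbols for replicates and bars for the mean and SD. On the left, the mean of the 3 pro-survival members minus the mean of the 7 pro-apoptotic members overlaps between groups, with means of -0.89 and -0.95; on the right, PMAIP1 minus MCL1 is higher in every KHSRP siRNA array.

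The overall count of calls is unsteady, which bears on how near a member comes to the threshold. Of 22413 genes, 170 were called, of which 114 were higher under KHSRP siRNA and 56 lower, all with adjusted p between 0.0438 and the threshold. After another quantile normalization 32 were called, 11 higher and 21 lower. Array weights gave 705 calls, and 0 were called after centring on array medians (3111 at an unadjusted limma p under 0.05). PMAIP1 kept its direction in these settings, at 0.69, 0.75 and 0.70.

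**Figure D4:**
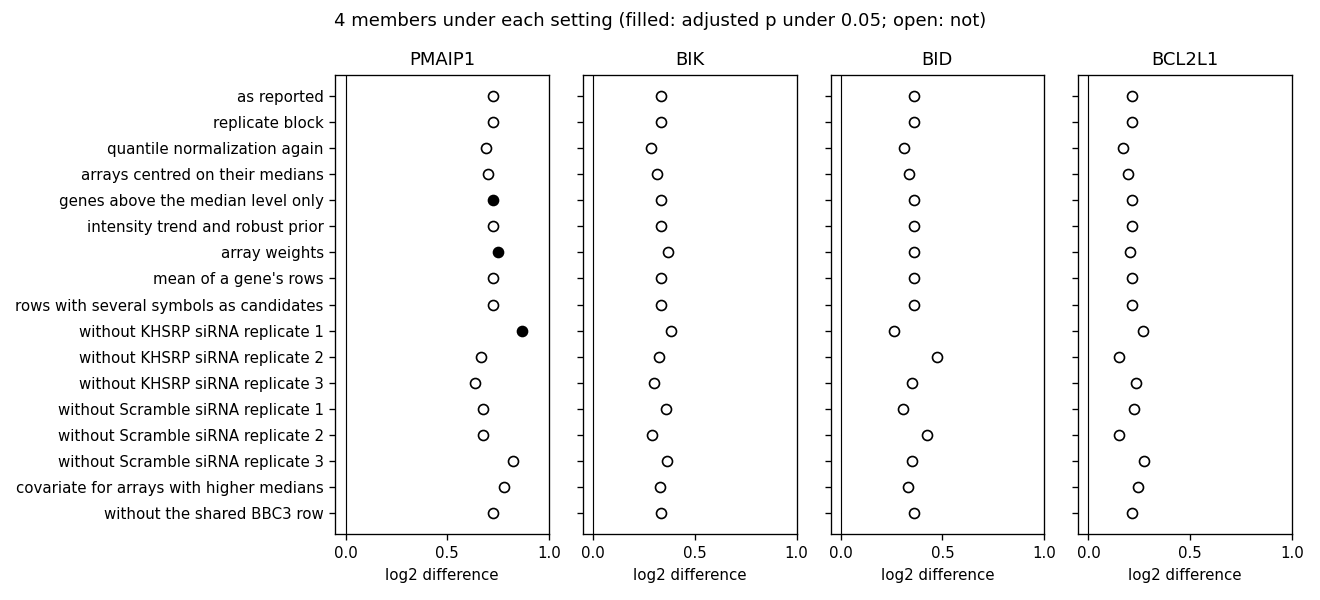
Log2 difference (horizontal axis) of PMAIP1, BIK, BID and BCL2L1 as reported and under 16 alternative settings (vertical axis), filled where limma's adjusted p was under 0.05. All values lie above 0, and only PMAIP1 was called, in 3 settings.

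By the profile over the 6 arrays, each gene centred on its own mean, the genes most like PMAIP1 among 11205 genes above the median level were RIOK2, a kinase gene of small ribosomal subunit maturation, S100A10, the gene of an annexin partner, and TMEM123, a membrane protein gene. Their root mean square differences from PMAIP1 were 0.03, 0.04 and 0.06 log2 units. For BIK the closest were the proteasome subunit gene PSMB4, the Mediator subunit gene MED31 and PRR11, each at 0.04. With 6 arrays, closeness of this kind describes these arrays and no more.

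None of the 13 other measured genes of the BCL2 family passed, beside 0.758% of all genes, with a median log2 difference of 0.05. At an unadjusted limma p under 0.05 there was 1, beside 14.4% of all genes. Higher without overlap were 2 of the 13, beside 11.6%, and 0 were lower without overlap. BCL2L15, a family gene described in the gastrointestinal tract, came closest. Its level was 9.56, 9.19 and 9.52 in the arrays labelled KHSRP siRNA and 9.06, 8.53 and 8.80 in the scramble arrays, without overlap. The log2 difference was 0.63 (SE 0.16, limma adjusted p = 0.128), and it passed with array weights (0.72, adjusted p = 0.0463). With array weights 705 of all 22413 genes were called. The BH3-only gene BAD was at 0.25 (SE 0.11, adjusted p = 0.357) and the mitophagy receptor gene BNIP3L at 0.15 (SE 0.08, adjusted p = 0.515).

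Downstream of the pore, 0 of 7 measured apoptosome and caspase genes passed (limma, 0 also at an unadjusted p under 0.05, beside 14.4% of all genes, median 0.08). CYCS, the gene of cytochrome c, was at 0.24 (SE 0.14), the apoptosome scaffold gene APAF1 at -0.24 (SE 0.12) and the initiator caspase gene CASP10 at 0.24 (SE 0.11), on a row with a mean of 3.94, below the olfactory receptor level of 4.73. Of 8 measured genes for released mitochondrial factors and inhibitors of apoptosis, 0 passed, with 4 at an unadjusted limma p under 0.05, 2 higher and 2 lower, where 14.4% of all genes were. HTRA2, a mitochondrial protease gene, was at -0.50 (SE 0.14, limma adjusted p = 0.174) and passed without KHSRP siRNA replicate 1 (-0.66, adjusted p = 0.0442). That array held the highest HTRA2 level of its group, and without it 329 of all 22413 genes were called. BIRC6 was at -0.51 (SE 0.16) and BIRC2 at 0.43 (SE 0.17), both genes of inhibitors of apoptosis, and the flavoprotein gene AIFM1 at -0.19 (SE 0.09).

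Genes of the VDAC channels and of mitochondrial fusion and fission had the lowest median of the 6 pathway lists. Of these 7 genes 0 passed (limma, 4 at an unadjusted p under 0.05, all lower, beside 14.4% of all genes in either direction). In 4 of the 7, all fusion or fission genes, the arrays labelled KHSRP siRNA lay wholly below the scramble arrays, where 7.82% of all genes did. The channel genes VDAC1, VDAC2 and VDAC3, named after their values were seen, overlapped, with log2 differences of 0.09, 0.10 and -0.04. They are not genes of the pore that BAX and BAK1 form. The fusion gene MFN1 was at 9.13, 9.19 and 9.46 in the arrays labelled KHSRP siRNA and at 9.73, 9.70 and 9.71 in the scramble arrays, a log2 difference of -0.45 (SE 0.10, limma adjusted p = 0.102). The inner membrane fusion gene OPA1 was at -0.33 (SE 0.09, adjusted p = 0.167) and the fission gene DNM1L, known for acting beside BAX at division sites, at -0.26 (SE 0.09, adjusted p = 0.249). The other gene lower without overlap was MFN2, also named after its value was seen, at -0.29 (SE 0.12, adjusted p = 0.329). Its groups were only 0.002 apart. The median of the list was -0.26, beside 0.02 over all genes.

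Among 8 regulators of BCL2 family protein stability 0 passed (limma, 1 at an unadjusted p under 0.05, beside the same 14.4%, median -0.06). HUWE1, a ubiquitin ligase gene whose product is also known as MULE and marks MCL1 for degradation, was at -0.57 (SE 0.17, adjusted p = 0.189). The ligase gene FBXW7 was at -0.29 (SE 0.13, adjusted p = 0.363) and USP9X, whose product removes ubiquitin from MCL1, at -0.16 (SE 0.12, adjusted p = 0.631). These are transcript levels and say nothing of MCL1 protein.

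Of 7 measured transcription factor genes linked to BH3-only genes 1 passed narrowly, beside 0.758% of all genes. This was HIF1A, the gene of the oxygen-regulated factor HIF-1 alpha. It was at 9.25, 9.44 and 9.20 in the arrays labelled KHSRP siRNA and at 8.77, 8.70 and 8.59 in the scramble arrays. It was thus higher without overlap, as were 11.6% of all genes. The log2 difference was 0.62 (SE 0.10, limma adjusted p = 0.0479), and the call was lost in 11 of 16 alternatives, each omission of an array included, with adjusted p up to 0.169 and differences from 0.54 to 0.66. ATF4, a stress-response factor described as an activator of PMAIP1, was at 10.41, 11.02 and 10.45 against 10.42, 10.32 and 10.30. Its groups overlapped, with replicate 2 of KHSRP siRNA standing above the others, and the log2 difference was 0.28 (SE 0.16, adjusted p = 0.523). FOXO3, described as an activator of BCL2L11, was at 0.12 (SE 0.14, adjusted p = 0.805).

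**Figure D5:**
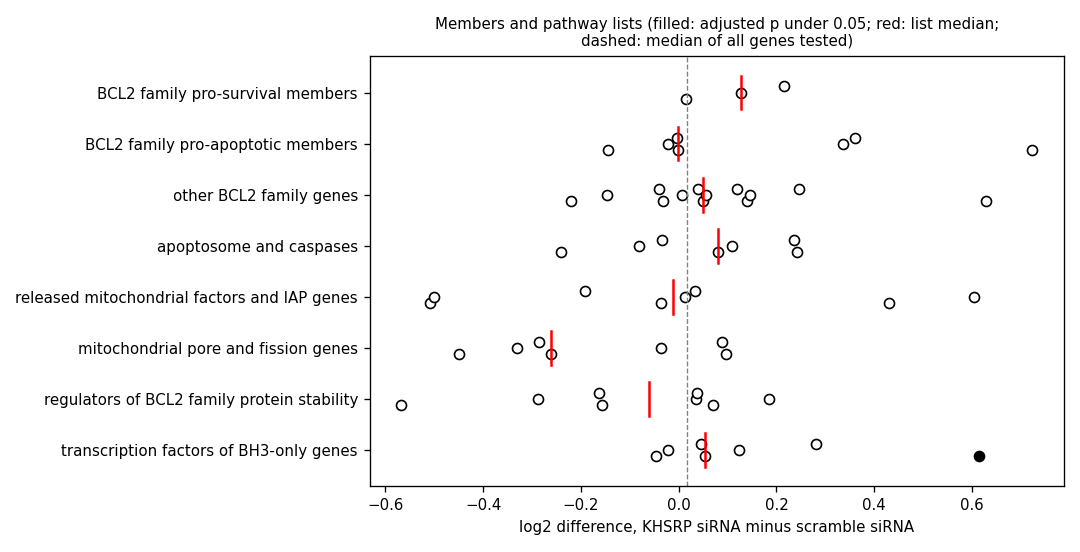
Log2 difference (horizontal axis) of each measured gene in the member lists and in 6 pathway lists (vertical axis), filled where limma's adjusted p was under 0.05; red marks give list medians and the dashed line the median of all genes tested, 0.02. HIF1A is the single filled point, and the list labelled mitochondrial pore and fission genes (VDAC, fusion and fission genes) has the lowest median, -0.26.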

How the data were processed

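The authors deposited log2 intensities, 70523 rows by 6 arrays. RMA, Affymetrix Expression Console, Transcriptome Analysis Console and build hg19 are named per the submitters' processing notes, with no settings. Array medians ran from 4.30 to 4.38. Maxima near 19.93 leave a further transform possible. Percentages of the scramble level and summed linear levels take the deposited values as plain log2 intensities and would not hold under such a transform. Arrays have no depth, so precision rests on their number.

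Gene names came from the platform annotation and a RefSeq gene table (GRCh38.p14), which supplied no row coordinates. Rows with several symbols were left out, except those of KHSRP and BBC3. Tests used limma 3.58.1 under R 4.3.3 (eBayes after lmFit, two-sided, Benjamini-Hochberg over 22413 genes), a script tested on simulated data. The labels call replicates biological and do not name separate cultures. The p-values set group differences against the spread within these groups, which may be technical. Members and lists were chosen with earlier results of these data known. Named genes were the members, KHSRP, per list the 3 smallest p-values and the brightest gene, and for 2 members their 3 closest profiles. Alternatives were a replicate block, quantile normalization, median centring, a level filter, a trended robust prior, array weights, other row choices and omission of each array. A covariate for array medians and omission of the BBC3 row were added after seeing the data. Some genes of the pathway lists are not reported here.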

Additional observations from a re-analysis of the deposited data

How the results depend on the processing

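The number of called genes, 170, was 1 with the replicate block, 32 when quantile normalization was repeated, 433 with dim genes left out, 705 with array weights, and 0 after median centring, with a trended robust prior or with the covariate for array medians (3111, 3097 and 3535 genes at an unadjusted limma p under 0.05). Leaving out single arrays gave 0 to 329. Of the 10 members 1, PMAIP1, was called among genes above the median level (0.72), with array weights (0.75) and without KHSRP siRNA replicate 1; over the omissions its difference ran from 0.64 to 0.87 and the count of members from 0 to 1. MCL1 was at -0.0416 after repeated quantile normalization, -0.0091 after centring, -0.0028 with array weights and from -0.16 to 0.20 over the omissions. BBC3 and BCL2L11 were at 0.015 and 0.0247 with array weights, and over the omissions ran from -0.10 to 0.10 and from -0.0644 to 0.0529, and BAK1 from -0.11 to 0.11. BCL2, BCL2L1, BAX, BID and BIK kept their direction and were not called in any alternative that measured them. The balance of the sides stayed within its SD of the reported value. Other BCL2 family genes had 1 call with array weights, released factors and inhibitors 0 to 1 over the omissions, and transcription factors 0 over every omission, with the replicate block, after quantile normalization or centring, with the trended robust prior and with the covariate. The cause of these changes was not tested. Correlations between same-numbered arrays, taken on deviations from group means, were 0.118, 0.028 and -0.066. Of 6 arrays, 3 correlated best with their own number. Deviations within a group of 3 are tied to each other, so these values cannot settle whether the arrays were paired. The numbers were not taken as pairs. Under the block PMAIP1 was at 0.72 (limma adjusted p = 0.0912) and no member was called. With 3 arrays a group, the members' SEs ran from 0.09 to 0.17 log2 units, which limits what could be detected.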
